A study of Danio rerio with 3 samples.

Results

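The comparison described here set zebrafish larvae injected with a morpholino against *atg5* (the 5MO library) beside larvae injected with *atg5* mRNA (the 5mRNA library). A morpholino is a synthetic oligonucleotide that blocks the splicing or translation of its target RNA, and an injected mRNA adds transcript for the embryo to translate, so the 2 libraries carry opposite manipulations of the same gene. All named genes whose mean over the 3 libraries of the series was at least 1 RPKM (reads of a gene scaled to its length and to the size of the library) were compared, which kept 19172 of 28084 named genes. The third library, WT, came from uninjected larvae and is shown beside the other 2. The labels give strain AB and an age of 6 days post-fertilization (dpf) for all 3 groups. They describe 5MO as *atg5* knockdown by injection of 5MO, 5mRNA as *atg5* overexpression by injection of *atg5* mRNA, and WT as untreated wildtype. Each group was 1 library of whole larvae, so the difference between 5MO and 5mRNA has no replicate check, and no test between conditions was possible. No library from embryos injected with a control morpholino or a control mRNA was analysed here, so the manipulation of *atg5* and the injected agent cannot be told apart. In whole larvae, fewer cells of a type and less RNA per cell cannot be told apart either.

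Autophagy is the route by which cells enclose cytoplasm, damaged organelles and protein aggregates in a double membrane and deliver them to the lysosome. Atg5 is joined covalently to Atg12 and, with Atg16l1, directs the attachment of LC3 and GABARAP proteins to the lipid of the growing membrane. The text of the study does not state whether the *atg5* morpholino blocks splicing or translation. A morpholino that blocks translation acts on the protein made from a transcript, and an injected mRNA is degraded over the days after injection. The level of *atg5* RNA at 6 dpf therefore need not report either manipulation.

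The STAR summaries listed 28190319 read pairs for 5MO, 31140490 for 5mRNA and 27492652 for WT, of which 87.63% to 87.88% mapped to 1 place. The 10 named genes with the most reads held between 8.86% and 9.32% of the read total behind the RPKM values of a library. Of 27 tissue markers written down for whole larvae (fast muscle, heart, liver, exocrine pancreas, lens, photoreceptor, skin, cartilage, neuron, red cell, leukocyte and intestine), 26 were in the table and all 26 had a mean of at least 1 RPKM. The oocyte gene *zp2.1* was listed at 0 in all 3 libraries and *buc* reached at most 0.058 RPKM. WT stood apart from both injected libraries in some programmes. The interferon list had a median log2 ratio to WT of -3.73 in 5MO and -4.29 in 5mRNA. Between the 2 injected libraries the median of its 17 measured members was 0. At least 1.5-fold higher in 5MO were 4 of them (23.5%, beside 5.6% of all genes), and 2 were lower (11.8%, beside 5.37%). *fkbp5*, a glucocorticoid-induced immunophilin, was at 260.2 RPKM in WT, 14.1 in 5MO and 14.8 in 5mRNA. WT values are therefore given beside most of the levels.

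*atg5* itself (ENSDARG00000023396, chr16:7463117-7499186, danRer10) was at 7.69 RPKM in 5MO, 8.97 in 5mRNA and 9.08 in WT, from 350, 440 and 397 reads. The injected mRNA library did not stand above WT, and 5MO was the lowest of the 3. The ratio of the read share in 5MO to that in 5mRNA was 0.856, with an exact 95% interval of 0.742 to 0.988. Such intervals (Clopper-Pearson, from reads recovered from the RPKM steps) are called counting intervals below. They cover counting error alone: PCR copies of 1 molecule cannot be recognised in these reads, and with 1 library per group the spread between batches of larvae was not measured.

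The 2 libraries were close for most genes. On the scale of log2(RPKM + 0.1), the difference of 5MO from 5mRNA had a median of -0.0030 over the 19172 genes, with the 5th percentile at -0.61 and the 95th at 0.62, and 49.5% of them lay above 0 and 50.5% below. At least 2-fold higher in 5MO were 245 genes (1.28%), and at least 2-fold lower were 233 (1.22%). At the looser limit of 1.5-fold, 1074 genes were higher (5.6%) and 1030 lower (5.37%). The counting interval lay above 1 for 4268 genes (22.3%) and below 1 for 4290 (22.4%). Against WT, 5MO had 210 genes at least 2-fold higher (1.1%) and 324 lower (1.69%), and 5mRNA had 204 (1.06%) and 315 (1.64%). Differences past 2-fold lay mostly among weakly expressed genes. Between 1 and 2 RPKM, 128 of 2336 genes were at least 2-fold higher and 110 at least 2-fold lower, whereas the share past 2-fold in either direction was 0.856% of 8060 genes between 5 and 20 RPKM and 0.629% of 795 genes at 100 RPKM or more. Of genes near the minimum, some passed it only through their higher library.

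**Figure D1:**
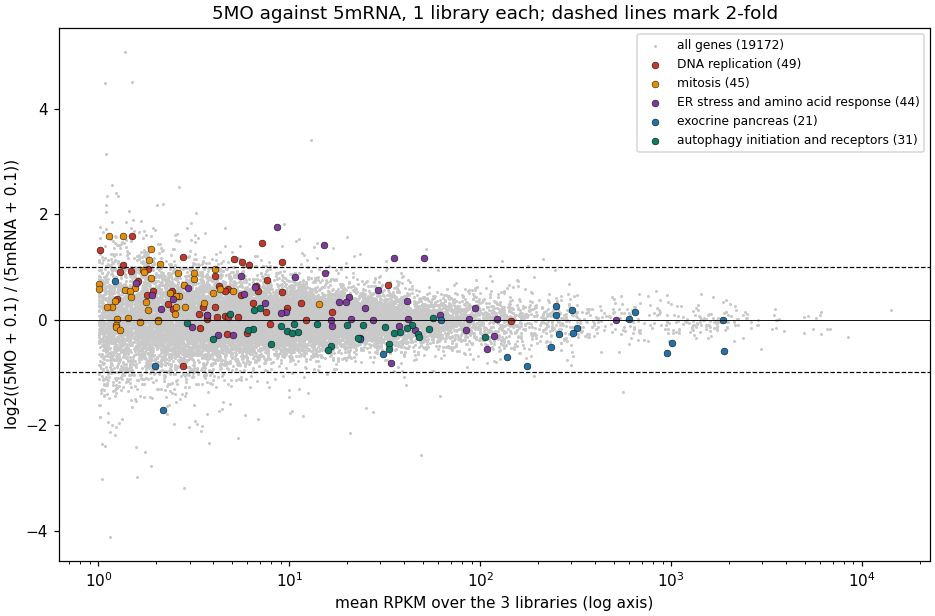
Each point is 1 gene, placed by its mean RPKM over the 3 libraries (horizontal, log axis) and its log2 ratio of 5MO to 5mRNA with 0.1 added to each RPKM (vertical). Dashed lines mark 2-fold, which 245 genes exceed upward and 233 downward, and the 49 DNA replication genes (red) lie mostly above 0 while the 31 autophagy initiation genes (green) lie mostly below it.

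Genes of DNA replication were higher in 5MO than in 5mRNA as a group. Of 49 measured members, 42 were above 0, 18 were at least 1.5-fold higher (36.7%, beside 5.6% of all genes) and 1 was at least 1.5-fold lower, with a median of 0.48 against -0.0030 over all genes. The counting interval lay above 1 for 26 members and below 1 for 2. Set against WT, the median was 0.29 for 5MO and -0.20 for 5mRNA, so WT lay between them. At least 2-fold higher were 9 of the 49 (18.4%), beside 1.28% of all genes.

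The difference was large in the MCM2-7 helicase, the ring that is loaded onto origins and unwinds DNA at the fork. *mcm6* was at 11.5 RPKM in 5MO, 4.15 in 5mRNA and 5.93 in WT, a log2 difference of 1.45 with a read ratio of 2.78 (2.41 to 3.2). *mcm2* was at 13.1, 6.14 and 8.21 RPKM, *mcm3* at 7.42, 3.29 and 4.74, *mcm5* at 8.92, 4.27 and 5.33, and *mcm4* at 9.85, 5.80 and 7.27, in the same order of libraries. In all 5 of these subunits 5MO was the highest library and 5mRNA the lowest, and 4 of the 5 passed 2-fold. *mcm7* departed from the other subunits. It was listed at 136 RPKM in 5MO, 138 in 5mRNA and 160 in WT, far above the rest of the complex, with a log2 difference of -0.03.

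Licensing and synthesis factors around the helicase were less uniform. *orc1*, the large subunit of the origin recognition complex, was at 2.31 RPKM in 5MO, 0.701 in 5mRNA and 1.51 in WT, with a log2 difference of 1.59 and a read ratio of 3.29 (2.25 to 4.90). *orc2*, another subunit of that complex, ran the opposite way at 1.81, 3.42 and 3.12 RPKM, on 29, 59 and 48 reads. The median of the 6 origin recognition genes was 0.34. *rrm1*, the large subunit of ribonucleotide reductase, was at 7.74 RPKM in 5MO, 3.59 in 5mRNA and 5.53 in WT, and *pold1*, the catalytic subunit of DNA polymerase delta, at 3.90, 1.66 and 2.76. *pcna*, the sliding clamp, was the most abundant of those past 1.5-fold, at 41.4, 26.1 and 30.9 RPKM, with a read ratio of 1.59 (1.45 to 1.74). The chromatin assembly subunit *chaf1b* had a log2 difference of 1.33, and *gins4* of the GINS complex one of 1.03, but the mean of the other 2 libraries was below 1 RPKM in both, so they passed the minimum only through 5MO. The 5 replication factor C genes were all above 0, between 0.14 and 0.53, and none reached 1.5-fold. *rrm2*, the small reductase subunit, stood on 2 rows of the table with log2 differences of 0.20 and 0.83, and reads may be split between such copies.

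Mitotic genes showed the same direction. Of 45 measured members, 39 were above 0, 16 were at least 1.5-fold higher (35.6%) and none was at least 1.5-fold lower, with a median of 0.46, and the counting interval lay above 1 for 21 and below 1 for 0. The median against WT was 0.19 for 5MO and -0.22 for 5mRNA. These genes were weakly expressed in larvae of this age, and 17 further members of the 62 written down were absent from the table or below the minimum.

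The kinetochore genes *nuf2* and *ndc80* had log2 differences of 1.33 and 1.06. In *nuf2* the order of libraries was another one, since WT was the highest at 2.79 RPKM against 2.08 in 5MO and 0.763 in 5mRNA. The chromokinesin *kif4* had a difference of 1.14, and *plk1*, a kinase of mitotic entry and exit, was at 6.28, 3.15 and 2.79 RPKM with a difference of 0.97. *mki67*, the proliferation antigen Ki-67, was at 3.72, 1.96 and 2.16 RPKM with a read ratio of 1.90 (1.67 to 2.18). Of the 45 members, 5 passed the minimum only through 5MO, among them *mybl2b*, a transcription factor of the proliferation programme, at 2.40, 0.729 and 0.886 RPKM, and *tacc3*, a spindle protein, at 1.78, 0.529 and 1.11. Such members had to stand high in 5MO to be counted. The 4 measured condensin genes, whose products compact chromosomes, had a median of 0.83. By contrast *aurka*, *spc25*, *hmmr*, *spc24*, *bub1* and *ccnb3* lay between -0.20 and -0.01, each with a counting interval that included 1.

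**Figure D2:**
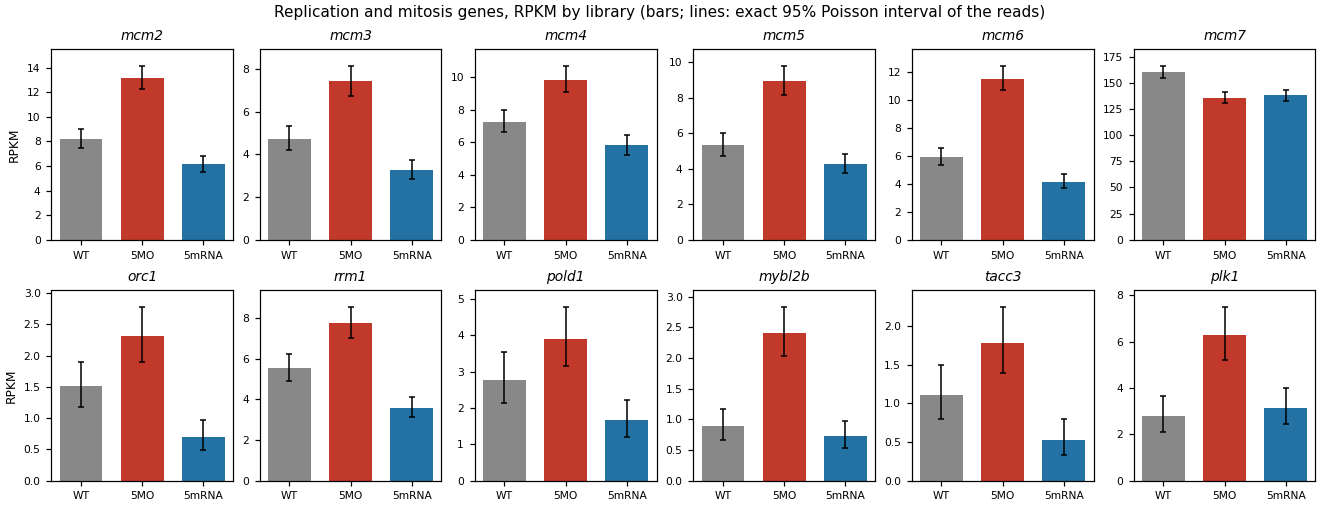
Bars give the RPKM of 12 replication and mitosis genes in WT, 5MO and 5mRNA, and lines give the exact 95% Poisson interval of the reads of that library. *mcm2* to *mcm6* are highest in 5MO and lowest in 5mRNA (*mcm6* 11.5 and 4.15 RPKM), whereas *mcm7* is at 136 in 5MO and 138 in 5mRNA.

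Chromatin genes followed in part. Of 33 measured members, 5 were at least 1.5-fold higher (about 15%, beside 5.6% of all genes) and 0 lower, with a median of 0.21. *rbbp4*, a histone chaperone subunit shared by several chromatin complexes, was at 13.1 RPKM in 5MO, 5.97 in 5mRNA and 7.66 in WT, with a log2 difference of 1.12. *ezh2*, the methyltransferase of Polycomb repressive complex, had a difference of 0.92, *ssrp1a* of the FACT complex one of 0.80, and *asf1bb*, a histone chaperone, one of 0.79. Targets of p53 did not share in it: of 20 measured, 0 were 1.5-fold higher and 1 was 1.5-fold lower, with a median of -0.04. Of 36 neural progenitor genes, 3 were at least 1.5-fold higher and 0 lower, with a median of 0.08, and that share of 8.33% was near the 5.6% of all genes.

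Chaperones of the endoplasmic reticulum (ER) were higher in 5MO than in 5mRNA, whereas the transcription factors and amino acid genes of the ER stress response were not as a group. This division of the list by role was drawn after its values had been seen. In the ER stress and amino acid list as a whole, 44 rows were measured, 10 were at least 1.5-fold higher (22.7%, beside 5.6% of all genes) and 1 lower, with a median of 0.18. The 13 rows of ER lumen chaperones and folding enzymes (12 symbols, *dnajb9b* being on 2 rows) were all above 0 with a median of 0.81, and 8 were at least 1.5-fold higher. The 23 transcription factors and ATF4 targets had a median of 0.0023, with 2 higher and 1 lower at that limit. The remaining rows of the list belonged to neither group. Against WT, the chaperones had medians of 0.35 (5MO) and -0.42 (5mRNA).

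*hspa5*, the BiP chaperone that binds unfolded chains in the ER lumen, was at 73.0 RPKM in 5MO, 32.2 in 5mRNA and 46.7 in WT, from 3471, 1646 and 2134 reads, with a log2 difference of 1.18 and a read ratio of 2.27 (2.14 to 2.41). *hsp90b1*, the ER member of the Hsp90 family, was at 51.1, 22.7 and 31.6 RPKM with a difference of 1.17. Both were highest in 5MO and lowest in 5mRNA. *calr3b*, a calreticulin that holds glycoproteins during folding, was at 13.9, 4 and 8 RPKM with a difference of 1.77, and the disulfide isomerase *pdia4* was at 24, 8.91 and 12.5 with a difference of 1.42. The abundant members *pdia3* and *canx* differed little, by 0.23 and 0.36. Outside the list, and chosen after their values were seen, the ER factors *hyou1*, *manf*, *creld2* and *dnajb11* had differences of 1.50, 1.64, 1.87 and 1.03.

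The 23 transcription factors and ATF4 targets lay on both sides of 0, between -0.82 and 0.62, with 7 counting intervals above 1 and 7 below. *xbp1*, a transcription factor of the unfolded protein response, was not among these 23. It was at 78.0 RPKM in 5MO, 76.9 in 5mRNA and 106.8 in WT, and *atf4a* was at 120.9, 120.3 and 125.5. *ddit3*, the stress factor CHOP, was at 42.5, 48.7 and 45.0 RPKM, with a read ratio of 0.872 (0.807 to 0.942). *ddit4*, an inhibitor of mTORC1 that many stresses induce, was at 21.7 RPKM in 5MO, 38.4 in 5mRNA and 41.9 in WT, a difference of -0.82. *chac1*, a glutathione-degrading enzyme downstream of ATF4, was at 435 and 436 RPKM in the injected libraries and 670.1 in WT.

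Cytosolic and mitochondrial chaperones were also higher. Of 33 measured heat shock genes, 30 were above 0, 7 were at least 1.5-fold higher (21.2%, beside 5.6% of all genes) and 0 were lower, with a median of 0.35. *hsp90aa1.1*, the Hsp90 of developing muscle, was at 30.7 RPKM in 5MO, 13.2 in 5mRNA and 21.3 in WT, with a read ratio of 2.33 (2.09 to 2.59). *unc45b*, the myosin chaperone that works with it, was at 12.2, 6.03 and 6.85 RPKM. *hspd1*, the mitochondrial chaperonin, was at 43.2, 19.8 and 32.8 RPKM, but its partner *hspe1* was at 57.2, 49.1 and 51.0 with a difference of only 0.22. *hspa4a*, an Hsp110 exchange factor, had a difference of 1.37. Of the tandem copies *hsp70.1*, *hsp70.2* and *hsp70.3*, whose reads may be shared, the differences were 0.57, 1.21 and 0.60. The constitutive chaperones *hspa8* and *hsp90ab1*, at 2541 and 2568 RPKM in 5MO, differed by 0.11 and 0.15, and the regulator *hsf1* by 0.03.

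**Figure D3:**
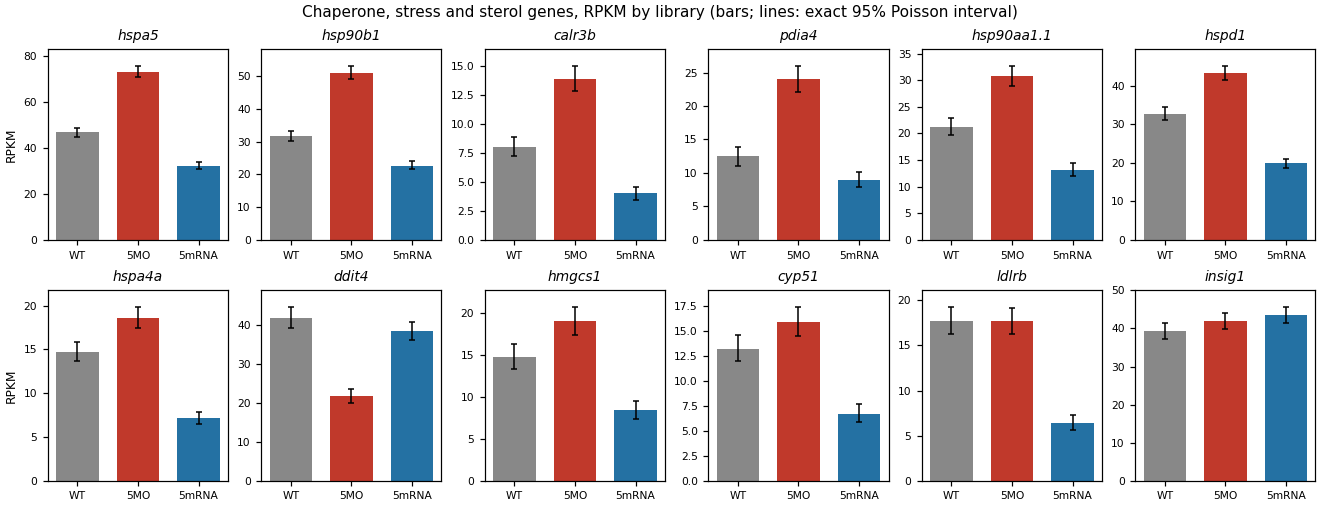
Bars give the RPKM of 12 chaperone, stress and sterol genes in WT, 5MO and 5mRNA, and lines give the exact 95% Poisson interval of the reads. *hspa5* is at 73.0 RPKM in 5MO and 32.2 in 5mRNA and *hmgcs1* at 19 and 8.36, whereas *ddit4* is lower in 5MO (21.7 and 38.4) and *insig1* is level (42.0 and 43.5).

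Sterol genes were split. Of 25 measured members of cholesterol synthesis and uptake, 8 were at least 1.5-fold higher in 5MO (32%, beside 5.6% of all genes) and 0 were lower, with a median of 0.26. *hmgcs1*, which makes HMG-CoA at the start of the pathway, was at 19 RPKM in 5MO, 8.36 in 5mRNA and 14.7 in WT. *cyp51*, the lanosterol demethylase, was at 16.0, 6.72 and 13.3 RPKM, and the LDL receptor copy *ldlrb* at 17.7, 6.41 and 17.7. In these 3 genes 5MO lay close to or above WT and 5mRNA lay below both. *mvda*, the mevalonate decarboxylase, had the largest difference of the list, 2.36, on only 29 reads against 5, with a read ratio from 2.39 to 20.7. It was the 1 member of the 25 that passed the minimum only through 5MO, so it had to stand high there to be counted. *srebf2*, the transcription factor that drives the pathway, was at 31.7, 20.3 and 25.7 RPKM with a read ratio of 1.56 (1.47 to 1.66). The rate-limiting reductases *hmgcra* and *hmgcrb* differed by 0.46 and 0.08, and the sterol sensor *insig1* by -0.05. *fads2*, the desaturase of long-chain polyunsaturated fatty acids, had the largest positive difference among genes with a mean of at least 20 RPKM, at 32.1 RPKM in 5MO, 10.7 in 5mRNA and 17.6 in WT, a difference of 1.57. *scd*, the stearoyl-CoA desaturase, was at 2.24, 1.07 and 1.57 RPKM.

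Lipid carriers of the gut and yolk followed in part. Of 22 measured genes with apolipoprotein-type symbols, 6 were at least 1.5-fold higher in 5MO (27.3%, beside 5.6% of all genes) and 1 was lower, with a median of 0.16. The 4 genes for apolipoprotein A-IV, which coats the chylomicrons that the intestine secretes, were all above 0. *apoa4b.3* was at 22.8 RPKM in 5MO, 2.05 in 5mRNA and 13.8 in WT, from 445, 43 and 259 reads, a log2 difference of 3.42 and a read ratio of 11.1 (8.14 to 15.6). *apoa4b.2* was at 308, 139 and 194 RPKM with a difference of 1.15. The annotated span of *apoa4b.2* (chr16:23999187-24033538, danRer10) encloses that of *apoa4b.3* (chr16:24006578-24007836), so reads of the tandem copies may not be fully separated. *apoba* and *apobb.1*, which encode the structural protein of lipoprotein particles, had differences of 0.92 and 0.67. *apoda.2* was the lower one, at 217, 391 and 288 RPKM, and the abundant *apoa1b* was at 2596, 2113 and 1376. Among 32 intestinal genes, which share *apoa4a* and *apoa4b.3* with this list, 6 were at least 1.5-fold higher (18.8%) and 1 was lower. Of 45 genes in the liver plasma protein list, 4 were higher (8.89%, near the 5.6% of all genes) and 0 lower, with a median of 0.22. The largest difference in that list, 1.32, was that of *tfr1a*, the transferrin receptor of red cell precursors, which is not a plasma protein.

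Collagen genes of cartilage and collagen I genes were higher in 5MO by small amounts. Of 29 measured cartilage genes, 25 were above 0 and 4 below, between -0.52 and 0.71, and 19 had a counting interval above 1 against 1 below, with a median of 0.34, but only 2 reached 1.5-fold (6.9%), a share close to the 5.6% of all genes. The 9 cartilage collagens all lay between 0.38 and 0.71, and each had a counting interval above 1. *col2a1a*, the main collagen of cartilage and notochord sheath, was at 148 RPKM in 5MO, 102 in 5mRNA and 90.1 in WT. *col9a1b* was at 52.8, 32.1 and 27.8 RPKM. In both, 5mRNA lay nearer to WT than 5MO did. Against WT, the cartilage collagens had medians of 0.67 (5MO) and 0.16 (5mRNA). The fibrillar collagen I genes *col1a1a*, *col1a1b* and *col1a2* differed by 0.68, 0.60 and 0.60, and *col1a1a* was at 373, 233 and 268 RPKM. They were the 3 genes past 1.5-fold among 11 measured collagen I and V genes, which had a median of 0.35 and a lowest value of -0.18. Transcription factors of cartilage differed less, *sox9a* by 0.22, *sox9b* by 0.17, *sox5* by 0.03 and *sox6* by 0.19.

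The osteoblast and Hedgehog signaling lists, for the pathways the study was about, differed little between 5MO and 5mRNA as groups, as far as measured. Of 28 osteoblast genes, 9 were below the minimum, among them *runx2a*, *runx2b*, *sp7*, *bglap*, *col10a1b* and *bmp8a*. Of the 19 measured, 0 reached 1.5-fold in either direction, and the median was -0.07. The collagen I genes, which the study counts among its osteoblast genes, were not in this list. As given above, all 3 were at least 1.5-fold higher in 5MO. *col10a1a*, the type X collagen of zebrafish osteoblasts, was at 8.06 RPKM in 5MO, 6.19 in 5mRNA and 5.48 in WT, with a read ratio of 1.3 (1.13 to 1.50). *bmp2b*, a bone morphogenetic protein, was at 4.23, 5.96 and 5.24 RPKM with a ratio of 0.710 (0.575 to 0.875), while its copy *bmp2a* was at 2.34, 1.93 and 1.86. *alpl*, the tissue-nonspecific alkaline phosphatase, was at 20.7, 24 and 20.8 RPKM, and *sparc*, a matrix glycoprotein of bone, at 347, 344 and 291. The list thus held genes on both sides of 0, with 3 counting intervals above 1 and 5 below.

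Among 24 Hedgehog rows, 0 reached 1.5-fold and the median was -0.0004. The ligand *shha* was at 5.68 RPKM in 5MO, 4.97 in 5mRNA and 3.92 in WT, with a read ratio of 1.14 (1.01 to 1.3). The receptor *ptch1* was at 11.7, 12.7 and 12.5 RPKM and the transducer *smo* at 4.01, 3.70 and 3.56. *gli1*, a transcriptional effector and target of the pathway, was at 2.70, 3.92 and 4.14 RPKM with a ratio of 0.689 (0.607 to 0.781), and *sufu*, an inhibitor of Gli proteins, at 7.43, 10.8 and 9.70 with a ratio of 0.686 (0.592 to 0.795). These 2 were the lowest members of the list, and *gli2a* and *gli2b* differed by 0.03 and 0.01. Among 34 BMP pathway genes, 0 reached 1.5-fold, with a median of 0.02.

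**Figure D4:**
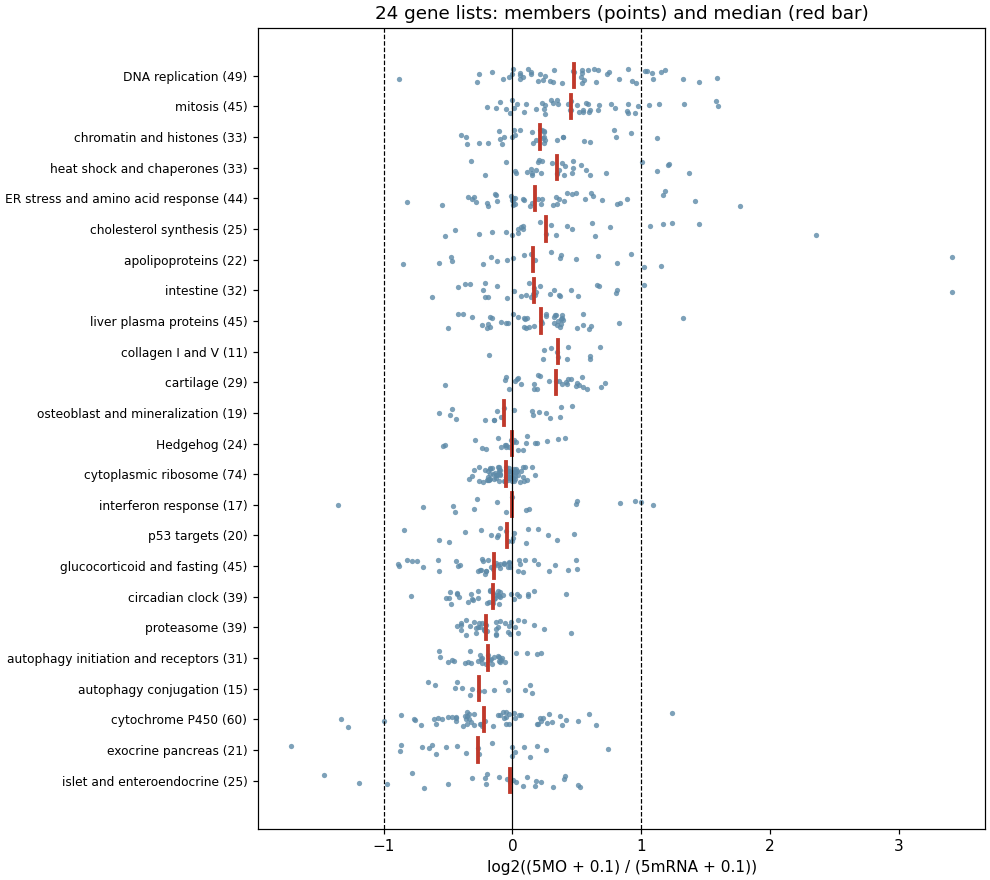
Each point is a member of 1 of 24 gene lists with a mean of at least 1 RPKM (number in brackets), placed by its log2 ratio of 5MO to 5mRNA, and the red bar is the list's median. The DNA replication and mitosis medians stand at 0.48 and 0.46, Hedgehog at -0.0004, and autophagy conjugation and exocrine pancreas both at -0.26.

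Genes of autophagy itself were slightly lower in 5MO than in 5mRNA. Of 15 measured genes of the conjugation machinery, 12 were below 0, with a median of -0.26. At least 1.5-fold lower were 2 (13.3%, beside 5.37% of all genes), against 0 higher. The counting interval lay below 1 for 9 and above 1 for 2, where 22.4% of all genes lay below 1 and 22.3% above. The 2 past 1.5-fold were *atg10*, the E2-like enzyme that joins Atg12 to Atg5, at 3.36 RPKM in 5MO, 5.35 in 5mRNA and 3.97 in WT, and *atg4c*, a protease that trims LC3-type proteins, at 4.93, 7.53 and 6.80. *atg12* was at 5.67, 7.67 and 6.88 RPKM with an interval from 0.539 to 1.01, and *atg7*, the E1-like enzyme of both conjugation systems, at 19.5, 25.6 and 26. *atg16l1* and *atg3* were on the other side of 0, at 0.15 and 0.09.

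Of the LC3 and GABARAP family, 4 of 5 measured genes were below 0. *map1lc3b* was at 46.0 RPKM in 5MO, 57.3 in 5mRNA and 54.6 in WT, with a read ratio of 0.802 (0.753 to 0.855). *gabarapl2* was at 34.5, 47.0 and 41.8 RPKM with a ratio of 0.733 (0.667 to 0.805). *gabarapa* was the one above 0, at 56.2, 51.2 and 52.2. Of 31 initiation genes and cargo receptors, 27 were below 0, but none reached 1.5-fold, and the median was -0.19. The counting interval lay below 1 for 17 and above 1 for 1, where 22.4% of all genes lay below 1 and 22.3% above. *atg101*, a subunit of the Ulk kinase complex, was at 12.9, 19.2 and 15.8 RPKM, and the mitophagy receptor *bnip3* at 26.1, 38.7 and 34.6. *sqstm1*, the cargo receptor p62, was at 49.5, 55.6 and 57.1 RPKM with a ratio of 0.890 (0.827 to 0.958). *ulk2*, the most abundant kinase of the list in WT, was at 69.8, 87.8 and 160.5 RPKM.

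The other routes of degradation differed from each other. Of 39 proteasome genes, 32 were below 0 with a median of -0.20 and none reached 1.5-fold. *psmb7*, the most abundant subunit gene, was at 131 RPKM in 5MO, 172 in 5mRNA and 190 in WT, and both injected libraries lay below WT as a group (medians -0.40 and -0.22). Of 53 lysosome genes, 31 were above 0, 2 reached 1.5-fold higher and 0 lower, with a median of 0.08. Cytoplasmic ribosomal protein genes kept close together: all 74 lay between -0.34 and 0.17, with a median of -0.05.

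Exocrine pancreas genes were lower in 5MO than in 5mRNA on balance, with a division inside the list. Of 21 measured members, 7 were at least 1.5-fold lower (33.3%, beside 5.37% of all genes) and 1 was higher, with a median of -0.26, and the counting interval lay below 1 for 13 and above 1 for 4. The median against WT was 0.04 for 5MO and 0.39 for 5mRNA. *cpa1*, a carboxypeptidase, was at 129 RPKM in 5MO, 236 in 5mRNA and 161 in WT, and the zymogen granule gene *sycn.2* at 116, 188 and 110. *prss59.2*, a trypsin, was at 1624, 2452 and 1609 RPKM and the elastase *ela2l* at 771, 1187 and 895. In these 4 genes 5mRNA was the highest library. None of the 4 was the 1 member past 2-fold lower, which had a log2 difference of -1.72. Other digestive enzymes made by the same acinar cells did not share the difference: chymotrypsin *ctrb1* was at 1938 RPKM in 5MO, 1939 in 5mRNA and 1696 in WT, *cpa5* at 248, 234 and 265, and the elastase *ela2* at 742, 674 and 514. The acinar transcription factor *ptf1a*, the 1 member at least 1.5-fold higher, was at 1.79, 1.03 and 0.835 RPKM, with an interval from 0.931 to 3.32. It was also the 1 member of the 21 that passed the minimum only through 5MO, so it had to stand high there to be counted.

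Several peptide hormone genes were lower in 5MO. Of 25 measured islet and enteroendocrine rows, 5 were at least 1.5-fold lower (20%, beside 5.37% of all genes) and 0 higher, with a median of -0.02. *gcgb*, a proglucagon gene, was at 1.33 RPKM in 5MO, 3.17 in 5mRNA and 2.77 in WT. *pyyb*, a gut peptide YY, was at 5.06, 10 and 7.75 RPKM with a log2 difference of -0.97. 5MO was the lowest library in both genes. Insulin (*ins*) was at 21.7, 19.2 and 16.5 RPKM with an interval from 0.928 to 1.37, and somatostatin *sst1.1* at 15.9, 15.6 and 17.2. *scg5*, a chaperone of hormone-processing enzymes, was on 2 rows that ran opposite ways, with differences of -1.46 and 0.53. Outside the list, and chosen after their values were seen, *insl5a*, an insulin-like peptide gene, was at 1.70, 4.07 and 3.95 RPKM and *mlnl*, a motilin-like gene, at 4.85, 11.1 and 6.92. Of 26 pituitary and hypothalamic genes, 4 were at least 1.5-fold lower (15.4%) and 1 higher. Among these 26, 1 passed the minimum only through 5MO, so it had to stand high there to be counted. Growth hormone (*gh1*) was at 1.6 RPKM in 5MO, 3.71 in 5mRNA and 1.29 in WT, so the mRNA library was the one that stood apart.

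Genes of fasting and glucocorticoid response were lower in 5MO on balance. Of 45 measured, 6 were at least 1.5-fold lower (13.3%, beside 5.37% of all genes) and 0 higher, with a median of -0.15, and the counting interval lay below 1 for 22 and above 1 for 6, where 22.4% of all genes lay below 1. Among these 45, 1 passed the minimum only through 5mRNA. *fbxo32*, the muscle atrophy ubiquitin ligase, was at 90.1 RPKM in 5MO, 151 in 5mRNA and 139 in WT. *igfbp1b*, a binding protein that restrains insulin-like growth factors, was at 92.2, 158 and 102 RPKM, and *cish*, a cytokine-induced inhibitor of JAK-STAT signaling, at 33.7, 54.7 and 84.6. *klf9*, a direct glucocorticoid receptor target, was at 30.6, 56.9 and 167 RPKM with a difference of -0.89. *fkbp5*, another such target, was level between the injected libraries, with an interval from 0.845 to 1.08, although both were far below WT. *tsc22d3* and *cebpd* differed by -0.42 and -0.44, *pck1*, the cytosolic enzyme of gluconeogenesis, by -0.19, and *pck2*, the mitochondrial form, by 0.49. In glucose metabolism, *pfkfb3*, which raises glycolytic flux, was at 24.3, 41.2 and 31.4 RPKM. Hexokinase *hk2*, which is outside the fasting and glucocorticoid list, ran the other way at 6.24, 3.17 and 4.59. Of 39 clock genes, 25 had a counting interval below 1 against 2 above, with a median of -0.15, and only *rorcb* passed 1.5-fold, with a difference of -0.79.

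Single genes from different lists stood high in 5mRNA, and those named here were chosen after their values were seen. *hamp*, which encodes the iron hormone hepcidin, was at 3.66 RPKM in 5MO, 13.9 in 5mRNA and 3.07 in WT, from 67, 273 and 54 reads, a log2 difference of -1.89 and a read ratio of 0.264 (0.199 to 0.346). *crp3*, a C-reactive protein gene, was at 13, 41.8 and 20.5 RPKM with a difference of -1.68. In both, 5mRNA stood above the other 2 libraries. The heme oxygenase *hmox1a* was likewise highest in 5mRNA, at 2.72, 5.15 and 2.79 RPKM. The transferrin gene *tfa*, another iron gene of the liver, was at 287 RPKM in 5MO and 286 in 5mRNA. *cyp7a1*, the rate-limiting enzyme of bile acid synthesis, was at 26.5, 44.9 and 23.1 RPKM. Of the 60 measured cytochrome P450 genes, 9 were at least 1.5-fold lower in 5MO (15%, beside 5.37% of all genes) and 3 higher (5%), with a median of -0.22 that came to -0.07 at a minimum of 5 RPKM. Among these 60, 3 passed the minimum only through 5mRNA and 0 only through 5MO. Such members had to stand high in 5mRNA to be counted. The 21 neutrophil and inflammation genes, which include *hamp*, had 3 members at least 1.5-fold higher and 3 lower, with a median of 0.11. Among these 21, 1 passed the minimum only through 5mRNA.

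**Figure D5:**
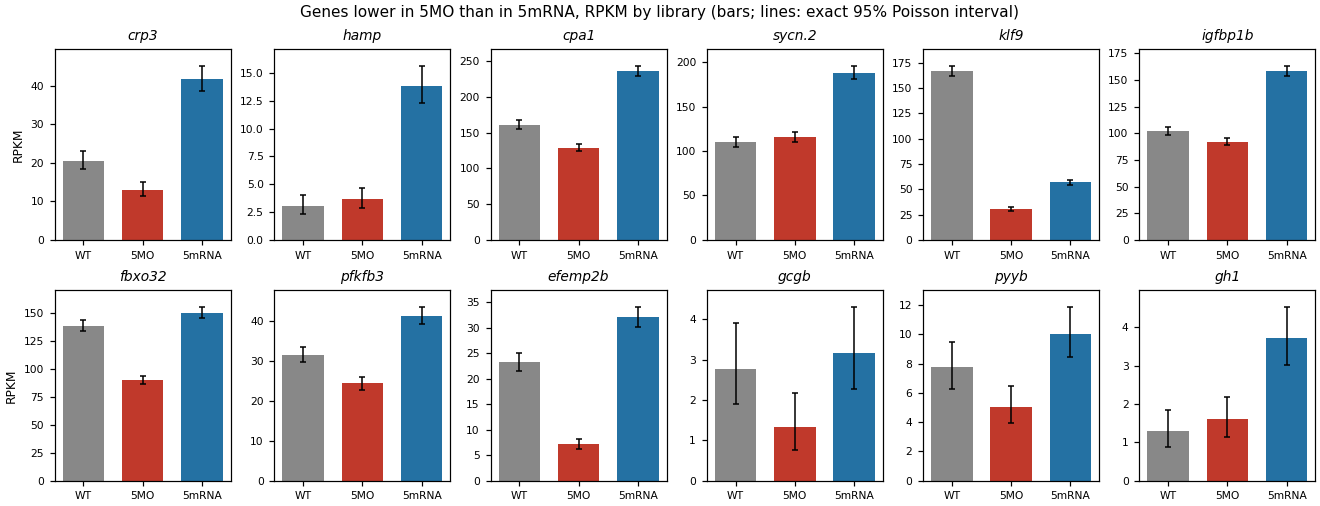
Bars give the RPKM of 12 genes that were lower in 5MO than in 5mRNA, in WT, 5MO and 5mRNA, and lines give the exact 95% Poisson interval of the reads. *hamp* and *crp3* stand high in 5mRNA (13.9 and 41.8 RPKM, against 3.66 and 13 in 5MO), *efemp2b* stands low in 5MO (7.18 RPKM), and *klf9* is highest in WT (167 RPKM).

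Alpha actin genes differed while most of the muscle programme did not. Of 44 fast muscle genes, 3 were at least 1.5-fold higher in 5MO (6.82%, beside 5.6% of all genes) and 1 lower, with a median of 0.01. *acta1a* was at 183 RPKM in 5MO, 84.2 in 5mRNA and 122 in WT, and *actc1a* at 73.2, 28.7 and 54.6. *acta1b* was at 322, 166 and 250 RPKM, but its span overlaps that of *si:dkey-162b3.5* on the other strand, which moved with it (difference 1.02), and without a stated strand setting the 2 cannot be told apart. *actc1b*, by far the most abundant actin gene, was at 14915, 13152 and 14314 RPKM, a difference of 0.18.

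Single genes with large differences were few at higher levels. Among genes with a mean of at least 20 RPKM, *efemp2b*, which encodes a fibulin of elastic fibres, was at 7.18 RPKM in 5MO, 32.1 in 5mRNA and 23.3 in WT, a log2 difference of -2.14. Its neighbours on chromosome 21, *fibpb* and *tmem179b*, were also low in 5MO, with differences of -1.77 and -1.61. *efemp2b* and *fibpb* lie at chr21:25551831-25568004 and chr21:25568763-25576644 on the minus strand (danRer10). *zgc:158463* was at 329, 855 and 483 RPKM with a difference of -1.38, and *pltp*, the phospholipid transfer protein, at 22.3, 47.4 and 50.6 with a difference of -1.09. *wu:fi09b08* had the largest decrease in that class, at 16.3, 96.2 and 34.7 RPKM, and its symbol stands on 3 measured rows, all of them past 2-fold lower in 5MO.

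At lower levels the largest differences rested on few reads. Of the 15 largest increases, *zc3h12a*, an RNase that limits inflammatory transcripts, was at 2.19 RPKM in 5MO, 0.333 in 5mRNA and 1.16 in WT from 49, 8 and 25 reads, and *ehf*, an epithelial ETS factor, was at 3.46, 0.683 and 1.94 RPKM from 80, 17 and 43 reads. In both genes WT lay between the injected libraries. *arl6ip6* had a difference of 2.04 on 42 against 9 reads. Of the 15 largest decreases, *hhla2a.2* was at 0.251, 2.70 and 1.80 RPKM from 9, 104 and 62 reads, and *bdkrb1*, a bradykinin receptor, at 0.274 and 1.82 in the injected libraries from 6, 43 and 22. In both, 5MO was the lowest library and WT lay between the injected ones. *zc3h12a* and *arl6ip6* passed the minimum only through 5MO, and *bdkrb1* only through 5mRNA. Each of these genes had to stand high in that library to be counted. The 3 largest increases of all, *si:dkey-161l11.60p*, *si:dkeyp-13d12.16* and *si:dkeyp-13d12.22*, had at most 4 reads in 5MO and 0 in 5mRNA, so no fold is given. Of 33 genes with 3 reads or fewer in 5MO or 5mRNA, 17 were past 2-fold.

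Genes past 2-fold were unevenly spread over the genome. On chromosome 22, 32 of 670 genes were past 2-fold (12 higher and 20 lower, 4.78%), beside 2.49% over all genes. The share was 4.66% on unplaced scaffolds, 4.1% on chromosome 4, 3.93% on chromosome 9 and 1.36% on chromosome 14. Genes with clone-based or provisional names were past 2-fold in 5.45% of cases, and those with assigned symbols in 1.71%. Chromosomes were not compared at equal expression level or within a class of names. Of 40 genes on chromosome 22 with a numbered zinc finger symbol, 8 were at least 2-fold lower and 1 higher, whereas of 118 such genes elsewhere 2 were lower and 0 higher. *znf1179* was the most abundant of those past 2-fold, at 31.8 RPKM in 5MO, 87.0 in 5mRNA and 65.8 in WT. These genes lie in tandem arrays with similar sequences, and how the counting treated reads that map to several copies is not given in the sources used here.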

How the data were processed

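RNA of whole larvae was sequenced as 1 library for each of 3 groups. Per the labels and the submitters' processing notes, the authors mapped read pairs with STAR 2.5.2a to danRer10 and deposited 1 table of RPKM values per gene. The counting tool, its strand setting and the annotation release are not given in the sources used here. Mapping totals came from the deposited STAR summaries. The 33 rows without a gene name, which held 35.7% to 36.1% of the RPKM, were left out, as were genes with a mean under 1 RPKM. Log2 ratios were taken after adding 0.1 to each RPKM, and a gene was called at 2-fold, with no test, since each group was 1 library.

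Whole reads behind the RPKM were recovered from the low values, since a gene with few reads can take only evenly spaced values in a library. This gave totals of 20301332 reads for 5MO, 21857365 for 5mRNA and 19502144 for WT, and whole reads, within 0.002 of a whole number, for 25905 genes. Where all 3 read numbers of a gene share a common factor, the recovered numbers are smaller than the true ones by that factor and the interval is too wide. Lengths under 50 bases were not tried. For shorter genes the recovered numbers can be larger than the true ones and the interval too narrow. Exact 95% Clopper-Pearson intervals of the ratio of read shares were computed from them. The recovery and the intervals were tested on simulated Poisson reads that used the recovered lengths. That simulation could not show error beyond counting, nor the failure for genes under 50 bases.

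The gene lists (62) and the groups within them were chosen with earlier results of these data known. Genes were named from those with the largest differences (the 15 largest each way, and the 10 largest each way with a mean of at least 20 RPKM). Within a list, they were named from the members past 2-fold, the most abundant member or those that define it. Further members were added to show the spread. Not every member past 2-fold was named, so the genes named are not always the largest differences of their list. Promoter motifs were not analysed here. Python 3.11.15, numpy 2.4.6, pandas 2.3.3, scipy 1.17.1 and matplotlib 3.10.9 were used. Alternatives covered the pseudocount, the minimum RPKM and the scaling.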

Additional observations from a re-analysis of the deposited data

How the results depend on the processing

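The counts of genes past 2-fold depended on the pseudocount and on the minimum level. The main counts were 245 higher and 233 lower in 5MO. With a pseudocount of 1 they were 75 and 68, all necessarily among the main ones, since a larger pseudocount only shrinks the ratios. Without a minimum they were 1063 and 1155, with a minimum mean of 0.1 RPKM they were 847 and 916, and with a minimum of 5 RPKM they were 54 and 34. A pseudocount of 0.01 gave 290 and 275, scaling by the median of ratios 245 and 233, and rescaling to the same RPKM sum 264 and 221. Requiring a counting interval that excluded 1 gave 235 and 221, and requiring more than 3 reads in both libraries as well, an alternative chosen after seeing the data, gave 230 and 215. Of 426 list medians under the alternatives, 13 changed sign, and 1 of these was of size 0.1 or more (erythroid genes at 5 RPKM). That of germ cell genes came to 0 with no minimum. The DNA replication median was 0.47 at a minimum of 5 RPKM and 0.38 with a pseudocount of 1, and the exocrine pancreas median was -0.26 under both. Of 196 values of named genes, 4 shifted by more than the distance from the middle of their counting interval to its end on the log2 scale. All 4 did so with a pseudocount of 1. A smaller shift can still take a value outside its interval, and such cases were not counted. Genes with 0 reads in 5MO or 5mRNA have an unbounded interval, so no shift of theirs could pass that limit. No value of a named gene reversed, but this was fixed in advance. A pseudocount cannot change a sign, and the log2 scaling factors were small (-0.0117 to 0.0122).

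No paired analysis was possible because each group was 1 library and no test was run, and for the same reason no library was left out. For every gene the spread between clutches, injections and RNA preparations was not measured. The promoter motif comparison that had been planned was not run.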

Other observations

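Several tissue and signaling lists lay near the median of all genes while single members stood apart. Over all genes, 5.6% were at least 1.5-fold higher in 5MO and 5.37% lower. Of 57 measured lens crystallin genes, 6 were higher at that limit (10.5%) and 3 lower (5.26%), with a median of 0.11. Those past 2-fold were all weakly expressed: *crygm1* was at 3.41 RPKM in 5MO, 1.36 in 5mRNA and 1.44 in WT, and *crybb3* at 0.719, 1.83 and 0.648. Of the 57, 2 passed the minimum only through 5MO and 2 only through 5mRNA, *crybb3* among the latter. Such members had to stand high in that library to be counted. Of 85 potassium channel genes, 7 were at least 1.5-fold lower (8.24%) and 3 higher (3.53%), with a median of -0.11. Among these 85, 1 passed the minimum only through 5mRNA. *kcnt1*, a sodium-activated channel, was at 2.21, 4.38 and 3.25 RPKM. Of 46 Hox genes, 6 were lower (13%) and 2 higher (4.35%), with *hoxa11b* at 1.81, 3.80 and 2.73 RPKM. Of the 46, 2 passed the minimum only through 5mRNA. *mpeg1.2*, a perforin-like gene of macrophages, was at 2.22 RPKM in 5MO, 0.624 in 5mRNA and 1.75 in WT. *mhc1zba*, a class I histocompatibility gene, was at 19 RPKM in 5MO, 5.30 in 5mRNA and 3.77 in WT, and was chosen after its values were seen.

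Photoreceptor (52 genes), mature neuron (60), respiratory chain (91), endothelium (33), pigment cell (39), myelin and glia (31), slow muscle (19), heart (25), inner ear (25), basement membrane (21), tight junction (34) and ionocyte (34) lists had medians between -0.11 and 0.19, with at most 2 members past 1.5-fold in each direction. The medians of the Wnt (44), FGF (41), Notch (23), epidermis (39), macrophage (18), erythroid (21), myogenic regulator (15), immediate early (42), hypoxia (25), oxidative stress (31), retinoic acid (34), matrix protease (32), fatty acid and glucose (36) and reference gene (22) lists lay between -0.07 and 0.20. At least 1.5-fold higher were 16.7% of the macrophage, 13.3% of the myogenic regulator and 12.9% of the oxidative stress list, beside 5.6% of all genes. The share was 12.8% for epidermis and 11.4% for Wnt. At least 1.5-fold lower, in the same order, were 5.56%, 0%, 3.23%, 0% and 2.27%, beside 5.37% of all genes. In the hypoxia list 8% were higher and 12% lower. Of its 25 members, 2 passed the minimum only through 5MO, so they had to stand high there to be counted. The thyroid and steroid list (11) had a median of -0.27 with 0 members past 1.5-fold. Of 28 germ cell genes 3 were measured, and of 7 vitellogenin genes 0.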
